A study of Mus musculus with 18 samples.

Results

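MC38 is a mouse cell line derived from a colon adenocarcinoma, and the data described here are its response to sildenafil, an inhibitor of the cGMP-degrading phosphodiesterase PDE5. The comparison takes 6 of the 18 libraries of the series: 3 from MC38 cells given sildenafil citrate at 100 µM for 24 hours, and 3 from MC38 cells given the solvent DMSO, called control. Both groups were plain MC38 cultures in DMEM with 10% fetal bovine serum, with no genetic change named in the labels. The members were chosen by these labels and all 55450 genes of the table were considered. The series also holds 4T1 (mammary carcinoma) and LLC (lung carcinoma) cells. Of these, 4T1 was treated for the same 24 hours and is used below for 1 comparison, as sildenafil at 100 µM against DMSO with 3 libraries each in RPMI medium. LLC was treated for 48 hours, so its line and its time cannot be told apart, and it is not compared. The labels do not state whether replicate libraries were grown as separate cultures. The p-values therefore measure only the spread between libraries, which may be technical.

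PDE5 breaks down cGMP, and its inhibitors raise cGMP where a guanylyl cyclase makes it. The title of the series links PDE5 to NPC1 and to cholesterol trafficking. NPC2 and NPC1 pass cholesterol out of the lysosome, and from there it reaches the endoplasmic reticulum. When cholesterol is scarce in that membrane, INSIG proteins release SCAP with the SREBP factors, which are cut in the Golgi and switch on the genes of sterol synthesis and uptake. When sterols are plentiful, oxysterols bind LXR factors, which raise sterol exporters such as ABCA1.

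The 6 libraries held 29438187 to 36417399 counts, with a count in 18041 to 18688 genes. Levels are given as CPM, each gene's share of the counts of its library scaled by TMM factors, and log2 fold changes compare sildenafil with control, ± the standard error (SE), with n = 3 libraries per group. Adjusted p-values come from edgeR's quasi-likelihood test with Benjamini-Hochberg adjustment over all 13363 genes tested, and "rose" or "fell" means an adjusted p under 0.05. The first principal component carried 40.4% of the variance and separated the groups, at 15.0 to 19.7 in sildenafil libraries and -21.4 to -14.5 in control libraries. Of the genes tested 5047 changed (37.8%), 2602 of them higher (19.5%) and 2445 lower (18.3%), and most changes were small: 58.3% of the changed genes moved by less than 1.2-fold. A change of at least 2-fold was found for 129 genes (0.965%), 98 higher and 31 lower. The 2 groups did not overlap for 6534 genes (48.9%), so a gene without overlap is common here. Small noncoding RNA genes, here those annotated as snRNA, snoRNA, scaRNA, misc_RNA or ribozyme, were counted together. They took 8.55% to 10.3% of the counts in sildenafil libraries and 7.36% to 9.16% in control libraries, although the labels give poly(A) RNA. The noncoding transcript Gm26917 differed between the groups, and a fit with its level as a covariate called 923 genes. Its counts are given beside each list where they moved a count by over 1.5 times, and a named gene whose call it ended is named there as lost. A lost call does not by itself mean a smaller change, because the SE was larger in that fit for 99.9% of the genes.

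The colon label was set against 20 markers of colon epithelium. Of these 9 had no count in any of the 6 libraries, among them the intestinal transcription factors Cdx1 and Cdx2 and the epithelial adhesion gene Epcam. A count of 0 allows up to 3 counts in a library, which is 0.0824 to 0.102 CPM in sildenafil libraries and 0.0944 to 0.0973 CPM in control libraries. The markers summed to 1933 to 2075 CPM in sildenafil libraries and 2416 to 2481 CPM in control libraries, nearly all of it the keratin gene Krt8 (1925 to 2067 CPM in sildenafil libraries and 2409 to 2473 CPM in control libraries). The mesenchymal collagen gene Col1a2 stood at 481 to 489 CPM in sildenafil libraries and 485 to 503 CPM in control libraries. Leukocyte markers summed to 25.0 to 25.9 CPM in sildenafil libraries and 16.0 to 16.2 CPM in control libraries, and 11 of 24 had no count in any library, among them the T cell genes Cd3e, Cd4 and Cd8a. Fibroblast markers summed to 1030 to 1044 CPM in sildenafil libraries and 1047 to 1070 CPM in control libraries. Most of this was Col1a2 and Col3a1 (327.9 to 333.3 CPM in sildenafil libraries and 373.2 to 399.5 CPM in control libraries for Col3a1). The fibroblast markers Thy1 and Acta2 had no count in any library. Endothelial markers summed to 6.35 to 6.82 CPM in sildenafil libraries and 5.77 to 6.88 CPM in control libraries. In such bulk libraries fewer cells of a type and less RNA per cell cannot be told apart.

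The largest response was a rise of the enzymes that make cholesterol. Of 9 mevalonate pathway enzymes 8 rose and none fell, with a median log2 fold change of 1.87, and of 12 enzymes from squalene to cholesterol 10 rose and none fell, with a median of 1.54. Over all genes tested 19.5% rose, 18.3% fell and the median was 0.004. The 11 largest rises reported under the naming rule were Hmgcs1, Insig1, Nsdhl, Idi1, Msmo1, Lpin1, Mvd, Fdft1, Fdps, Cyp51 and Lss, from 2.75 for Hmgcs1 to 1.79 for Lss. All but Insig1 and Lpin1 encode enzymes of this pathway.

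Hmgcs1 encodes the cytosolic HMG-CoA synthase, which feeds the mevalonate pathway, and lies on chromosome 13 (119690379 to 119708260, mm10). It stood at 621, 630 and 648 CPM in sildenafil libraries, against 94.5, 98.6 and 89.3 CPM in control libraries. All sildenafil libraries lay far above all control libraries, and the gene rose 6.72-fold (log2 fold change 2.75 ± 0.0367, adjusted p = 3.94e-17). Nsdhl encodes the sterol dehydrogenase that takes part in removing the C4 methyl groups and lies on the X chromosome (72918557 to 72958514). Its level was 56.8, 55.3 and 56.4 CPM in sildenafil libraries, against 10.9, 11.0 and 12.2 CPM in control libraries, again without overlap. It rose 4.93-fold (2.30 ± 0.0514, adjusted p = 1.64e-14).

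Promoters of these genes are known to carry CCAAT boxes, bound by the factor NF-Y, beside SREBP sites, so the 300 bases from 250 before to 50 after the RefSeq start (GRCm38.p6) are shown for both genes. They are the windows chr13:119690101-119690400 (plus strand) for Hmgcs1 and chrX:72918271-72918570 (plus strand) for Nsdhl. Capitals mark CCAAT or, where it is read on the other strand, ATTGG, and in Hmgcs1 also the sterol element core TCACNCCAC.
Hmgcs1: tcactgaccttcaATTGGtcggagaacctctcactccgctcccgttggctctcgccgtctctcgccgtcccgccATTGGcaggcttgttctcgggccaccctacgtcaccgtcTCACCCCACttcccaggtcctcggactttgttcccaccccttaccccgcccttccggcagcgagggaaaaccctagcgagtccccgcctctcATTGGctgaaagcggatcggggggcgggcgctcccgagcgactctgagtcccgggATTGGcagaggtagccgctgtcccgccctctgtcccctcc
Nsdhl: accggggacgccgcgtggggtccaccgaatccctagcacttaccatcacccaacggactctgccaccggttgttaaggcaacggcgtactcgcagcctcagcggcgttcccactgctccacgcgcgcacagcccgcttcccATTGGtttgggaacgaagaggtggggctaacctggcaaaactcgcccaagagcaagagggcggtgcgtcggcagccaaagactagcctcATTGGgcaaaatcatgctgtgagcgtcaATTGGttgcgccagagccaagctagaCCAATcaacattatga
Each window held 4 CCAAT matches counting both strands, and Hmgcs1 held 1 match to TCACNCCAC from position -137 to -129. CCAAT was found in 78.9% of the 19 windows available for 16 of the 21 sterol enzymes, against 38.5% of the 11618 windows of 9086 protein-coding genes tested. Windows with 4 or more matches made up 15.8% of the sterol enzyme windows and 1.83% of all windows. TCACNCCAC was found in 1 of the 19 sterol enzyme windows (5.26%), that of Hmgcs1, and in 1.08% of all windows. Both genes shown were picked from enzymes whose window held CCAAT or TCACNCCAC. A match describes the letters in the window and is not evidence of binding.

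The other mevalonate enzymes described here rose, with 1 exception. The thiolase Acat2 and the kinases Mvk and Pmvk rose by 1.48, 1.23 and 1.54, and the isomerase Idi1, the decarboxylase Mvd and the farnesyl diphosphate synthase Fdps by 2.17, 2.07 and 1.91. The exception was Ggps1, which makes geranylgeranyl diphosphate for protein prenylation and not for sterols. It stood at 53.5, 52.6 and 52.96 CPM in sildenafil libraries and 51.1, 49.4 and 49.96 CPM in control libraries, without overlap but without passing the test (0.08 ± 0.0371, adjusted p = 0.101).

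Among the enzymes after farnesyl diphosphate the fold changes were smallest for the late steps and for Tm7sf2. Squalene synthase Fdft1, the epoxidase Sqle, the cyclase Lss and the demethylase Cyp51 rose by 1.99, 1.53, 1.79 and 1.83, and the C4 methyl enzymes Msmo1, Nsdhl and Hsd17b7 by 2.10, 2.30 and 1.55. The late enzymes rose less, with 1.25 for the desaturase Sc5d, 0.74 for the reductase Dhcr7 and 0.68 for the isomerase Ebp. The C14 reductase Tm7sf2 was low and did not pass the test, at 3.41, 3.78 and 3.32 CPM in sildenafil libraries and 3.43, 4.93 and 3.11 CPM in control libraries (-0.13 ± 0.161, adjusted p = 0.574). This order is a description of 1 time point.

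**Figure D1:**
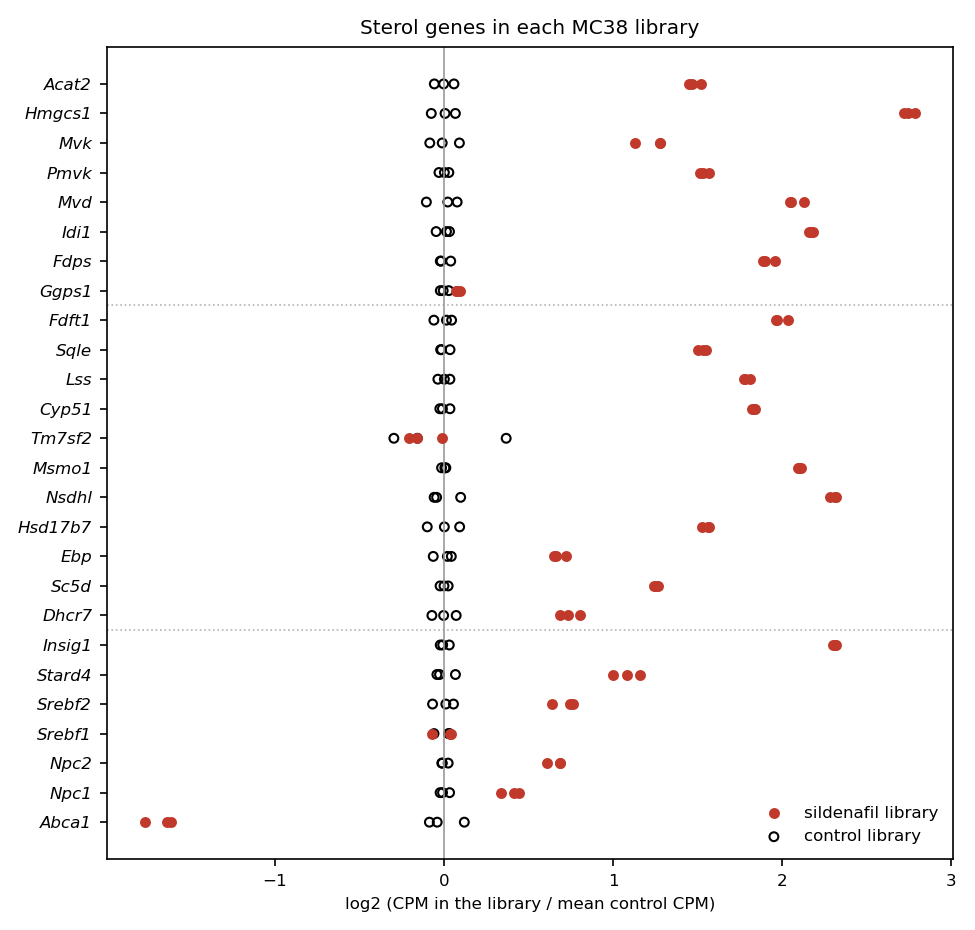
Level of each sterol gene in each MC38 library on the x axis, as the log2 ratio of its CPM to the mean CPM of the 3 control libraries. Filled points are sildenafil libraries and open points control libraries; dotted lines part the mevalonate enzymes (top), the enzymes from squalene to cholesterol (middle) and regulators and carriers (bottom). The sildenafil points lie to the right for most enzymes, overlap the control points for Tm7sf2 and Srebf1, and lie to the left for Abca1.

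Among the regulators of sterol synthesis, Insig1 moved most. INSIG1 holds SCAP and the SREBP factors in the endoplasmic reticulum and is itself a target of SREBP. It stood at 671, 664 and 672 CPM in sildenafil libraries, against 134, 138 and 133 CPM in control libraries, and rose 4.96-fold (2.31 ± 0.0288). Of 11 tested genes of sensing and uptake 6 rose and 1 fell, with a median of 0.29. Srebf2, the SREBP of sterol genes, was at 131, 143 and 141 CPM in sildenafil libraries and 80.4, 84.9 and 87.6 CPM in control libraries, a rise of 0.72 ± 0.0404 (adjusted p = 5.30e-09). Srebf1, the SREBP of fatty acid genes, overlapped between groups at 186, 187 and 172 CPM in sildenafil libraries and 174, 185 and 185 CPM in control libraries (0.0011 ± 0.0366, adjusted p = 0.986). Stard4, a soluble sterol carrier, rose by 1.08 ± 0.044. Scap, the escort of the SREBP factors, fell by 0.14, a call that was lost with the covariate (-0.21, adjusted p = 0.163).

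Most genes that move cholesterol out of the lysosome rose, by small amounts. Of 15 genes of lysosomal egress and membrane contact sites 11 rose and 1 fell, with a median of 0.19. Npc1, the membrane transporter named in the title, stood at 75.8, 71.9 and 77.2 CPM in sildenafil libraries, against 56.5, 55.9 and 58.2 CPM in control libraries, and rose 1.32-fold (0.40 ± 0.0378, adjusted p = 9.35e-07). Npc2, which hands cholesterol to NPC1 in the lumen, stood at 199, 199 and 189 CPM in sildenafil libraries, against 126, 123 and 123 CPM in control libraries (0.66 ± 0.0314, adjusted p = 3.28e-10). Lipa, the acid lipase that frees cholesterol from its esters, rose by 0.42, and the contact site carriers Gramd1c and Gramd1a by 0.36 and 0.25. The 1 fall was that of Vapa, an anchor of contact sites (-0.11), and its call was lost without control replicate 1 (adjusted p = 0.102), control replicate 2 (0.135), sildenafil replicate 2 (0.20) or sildenafil replicate 3 (0.058). With Gm26917 as a covariate 3 genes of the list rose and none fell, Npc1 and Npc2 kept their calls, and those of Lipa, Gramd1c, Gramd1a and Vapa were lost.

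The exporter gene Abca1 fell. Abca1, which loads cellular cholesterol onto apolipoproteins and is a classic LXR target, lies on chromosome 4 (53030787 to 53159895). It fell to 20.4, 18.6 and 20.7 CPM in sildenafil libraries, against 61.5, 59.6 and 68.8 CPM in control libraries, 0.315 times the control level (-1.67 ± 0.06, adjusted p = 1.15e-10). It was the largest fall under the naming rule and it was called in all 6 fits that left out 1 library. Of the 7 tested genes of efflux and LXR signalling 3 rose and 1 fell, Abca1 alone, with a median of 0.11. Lpcat3, a phospholipid-remodelling LXR target, rose by 0.53 ± 0.042 and the cholesteryl ester hydrolase Nceh1 by 0.48. The receptor gene Nr1h2 rose by 0.39 ± 0.0633, a call that was lost with the covariate (0.55, adjusted p = 0.0702). Mylip, an LXR target that encodes a ubiquitin ligase, stood at 8.11, 8.72 and 8.56 CPM in sildenafil libraries and 10.0, 8.54 and 9.14 CPM in control libraries, with overlap (-0.13 ± 0.0845, adjusted p = 0.268). The sterol exporter gene Abcg4 did not pass either (0.10 ± 0.222, adjusted p = 0.748).

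Enzymes of fatty acid synthesis rose with the sterol enzymes although Srebf1 did not pass the test. Of 17 tested genes 16 rose and none fell, with a median of 0.83. Elovl6, which lengthens palmitate, stood at 320, 318 and 324 CPM in sildenafil libraries, against 106, 105 and 108 CPM in control libraries (1.60 ± 0.0286, adjusted p = 1.00e-15). Fasn, the fatty acid synthase, was at 2278, 2394 and 2377 CPM in sildenafil libraries and 941, 988 and 1094 CPM in control libraries (1.22 ± 0.0528). The desaturase genes Scd1, Scd2 and Fads2 rose by 1.22, 1.18 and 1.18, and Acly, which makes cytosolic acetyl-CoA, by 1.17. Me1, the cytosolic malic enzyme, was the 1 gene that did not pass (-0.01). In the list of lipins, triglyceride synthesis and droplets 6 of 13 rose and 1 fell. Lpin1, a phosphatidate phosphatase and SREBP target, led it at 152, 157 and 155 CPM in sildenafil libraries and 36.5, 37.2 and 35.1 CPM in control libraries (2.09 ± 0.0348). Plin2, a droplet coat gene, fell to 191, 186 and 180 CPM in sildenafil libraries, against 226, 229 and 228 CPM in control libraries (-0.30 ± 0.0298). With the covariate 1 of these 13 genes rose and 1 fell.

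Genes of cGMP and cAMP signalling mostly changed by small amounts. Of 25 genes named as phosphodiesterases, not all of them enzymes that degrade cyclic nucleotides, 9 passed the filter on low counts. Of these 4 rose (44.4%) and 1 fell (11.1%), against 19.5% and 18.3% over all genes tested. Levels per kilobase of exon allow genes to be ranked: in sildenafil libraries Pde7a was highest at 24.6 ± 0.728 CPM per kb (mean ± SD), followed by Pde3b (7.44 ± 0.272), Pde6d (7.24 ± 0.11), Pde12 (3.93 ± 0.0786), Pde4a (1.83 ± 0.0827), Pde5a (1.59 ± 0.0511) and Pde4b (0.437 ± 0.0269). The levels of Pde3b and Pde6d overlapped between their libraries in both groups. Pde4d and Pde6h were lowest, also overlapping, at 0.122 to 0.208 and 0.135 to 0.172 CPM per kb in sildenafil libraries. Pde5a, which encodes the named target of the drug and lies on chromosome 3 (122728947 to 122859374), stood at 16.1, 15.1 and 15.7 CPM in sildenafil libraries, against 12.3, 12.7 and 12.8 CPM in control libraries. It rose 1.24-fold (0.31 ± 0.0602, adjusted p = 0.000799).

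Pde4b, a cAMP phosphodiesterase, rose most within the family, from the low end of the range: 4.55, 4.36 and 4.92 CPM in sildenafil libraries and 3.16, 2.05 and 1.85 CPM in control libraries (0.97 ± 0.172, adjusted p = 0.000533). Pde3b, which degrades cAMP and is inhibited by cGMP, rose by 0.17 ± 0.0376, and Pde12, a mitochondrial enzyme that acts on RNA tails, fell by 0.18. The call of Pde7a (0.09) was lost without control replicate 2 (adjusted p = 0.117), control replicate 3 (0.0808), sildenafil replicate 2 (0.0643) or sildenafil replicate 3 (0.133). With the level of Gm26917, a noncoding transcript that differed between the groups, as a covariate, Pde5a stood at 0.32 (adjusted p = 0.294) and Pde4b at 0.0662 (adjusted p = 0.946), and none of the 9 was called.

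On the side that makes and reads cGMP, 9 of 19 genes passed the filter. Of these 2 rose and 2 fell (22.2% each), near the shares over all genes tested (19.5% and 18.3%). The subunits of soluble guanylyl cyclase (Gucy1a1, Gucy1a2 and Gucy1b1), which answers nitric oxide, and the kinase gene Prkg1 had no count in any of the 6 libraries, within the limit given above. The membrane cyclases of natriuretic peptides were present, Npr1 at 1.70 ± 0.0703 CPM per kb in sildenafil libraries and 1.92 ± 0.0188 in control libraries, and Npr2 at 2.85 ± 0.155 CPM per kb in sildenafil libraries and 3.06 ± 0.268 in control libraries. Neither passed the test. Prkg2, the membrane-bound cGMP kinase, stood at 49.8, 50.01 and 47.9 CPM in sildenafil libraries, against 42.5, 42.1 and 42.7 CPM in control libraries (0.21 ± 0.0392, adjusted p = 0.000502). The nucleotide exporter gene Abcc5 rose by 0.18. The calls of the exporter gene Abcc4 (-0.15) and of the clearance receptor gene Npr3 (-0.15) were lost in 3 of the 6 fits without 1 library, with adjusted p-values of 0.0506 to 0.0913 for Abcc4 and 0.116 to 0.256 for Npr3. Of 14 tested genes of the cAMP and CREB response, 2 rose (Pde4b and Crem) and 2 fell (Dusp1 and Crtc2), 14.3% each. The call of Crem (0.26) was lost without control replicate 1 (adjusted p = 0.0519) or sildenafil replicate 3 (0.0579). No gene of the cGMP or the CREB list was called with the covariate.

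**Figure D2:**
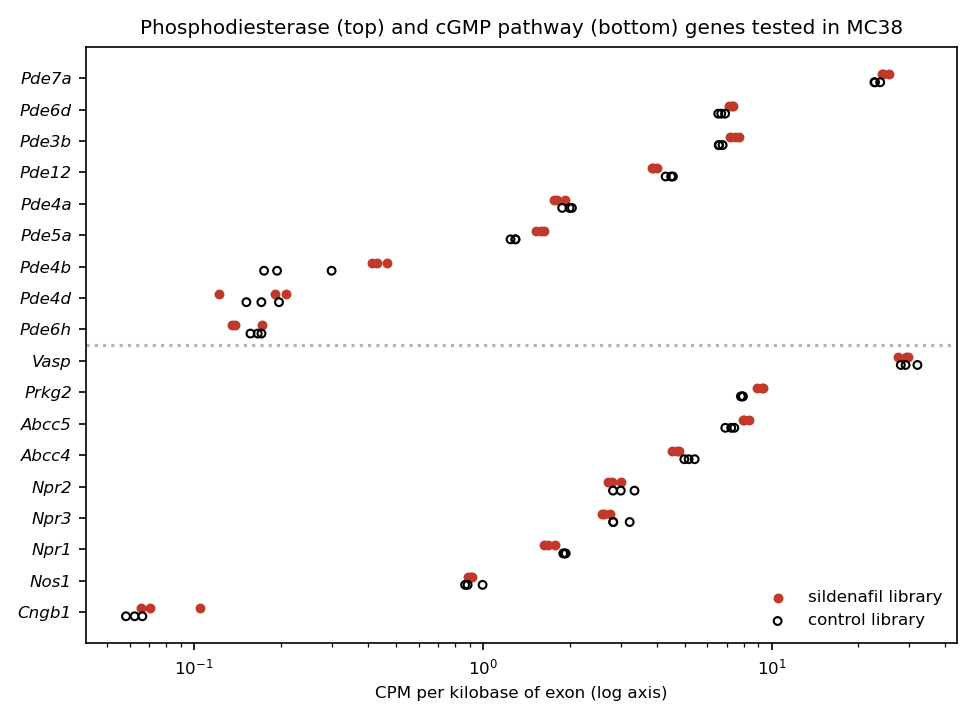
CPM per kilobase of exon (x axis, log scale) of the 9 phosphodiesterase genes (top) and 9 cGMP pathway genes (bottom) that were tested, 1 point per library. Filled points are sildenafil libraries and open points control libraries. The points of a gene lie close together beside the distance between genes, and Pde5a is at 1.53 to 1.63 in sildenafil libraries and 1.25 to 1.30 in control libraries.

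Lysosomal genes rose broadly and by small amounts. Of 30 hydrolase and lumenal protein genes 25 rose and none fell (median 0.36), and of 16 subunits of the vacuolar proton pump 15 rose and none fell (median 0.27). The neuraminidase Neu1 rose by 0.77 ± 0.0501, the progranulin gene Grn by 0.71 ± 0.0275 and the pump's accessory subunit Atp6ap2 by 0.54 ± 0.0306. Ctsd, the aspartic protease cathepsin D, lies on chromosome 7 (142375911 to 142388038). It stood at 582, 564 and 547 CPM in sildenafil libraries, against 354, 350 and 345 CPM in control libraries (0.69 ± 0.0296, adjusted p = 9.20e-11). The levels of the cathepsin genes Ctsl (0.01) and Ctsh (0.14) and the glucuronidase gene Gusb (-0.05) did not pass the test. With the covariate 14 hydrolase and lumenal and 7 pump genes rose.

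The factors TFEB, TFE3 and MITF are known to act on such genes through CACGTG-type sites, and the Ctsd window shows the motif in a promoter of the list (chr7:142387778-142388077, minus strand, RefSeq, GRCm38.p6, CACGTG in capitals).
Ctsd: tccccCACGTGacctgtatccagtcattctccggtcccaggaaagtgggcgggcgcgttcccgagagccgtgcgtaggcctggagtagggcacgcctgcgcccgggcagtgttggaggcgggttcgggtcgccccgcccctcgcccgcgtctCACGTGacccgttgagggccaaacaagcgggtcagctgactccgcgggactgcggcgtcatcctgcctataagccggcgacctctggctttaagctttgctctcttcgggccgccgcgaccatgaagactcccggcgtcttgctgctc
It held 2 matches, from -245 to -240 and from -98 to -93. The motif, which reads the same on both strands, was present in 33.3% of 39 windows of lysosomal and pump genes and in 9.9% of all 11618 windows. It was also present in 25.9% of 54 windows of the MYC network and ribosome biogenesis genes, most of which fell. MYC and the TFE factors are both known to bind this core.

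Of 12 genes of the MiT/TFE factors and the folliculin and Rag pathway 8 rose and 1 fell. The fall, that of the Rag GTPase gene Rraga (-0.16), lost its call without control replicate 1 (adjusted p = 0.126), sildenafil replicate 2 (0.115) or sildenafil replicate 3 (0.0523). Gpnmb, a lysosomal glycoprotein gene and MiT/TFE target, stood at 81.2, 82.1 and 79.0 CPM in sildenafil libraries, against 29.4, 31.7 and 30.6 CPM in control libraries (1.40 ± 0.0404, adjusted p = 4.29e-13). The factor genes Tfeb (0.24), Tfe3 (0.12) and Mitf (0.25) did not pass the test. In the autophagy machinery 15 of 29 genes rose and 1 fell (median 0.17), with the cargo receptors Optn, Nbr1 and Sqstm1 up by 0.56, 0.48 and 0.42 and the ubiquitin-like Gabarap and Map1lc3b by 0.47 and 0.46. The initiating kinase genes Ulk1 (-0.08) and Ulk2 (0.08) did not pass. The 1 fall, that of Atg3 (-0.17), was lost without control replicate 1 (adjusted p = 0.0805). Of 27 sphingolipid genes 17 rose and none fell, and Ugcg, the glucosylceramide synthase, was at 161, 171 and 175 CPM in sildenafil libraries and 94.1, 96.1 and 97.9 CPM in control libraries (0.81 ± 0.035). With the covariate 4 genes of the MiT/TFE list, 3 of autophagy and 6 of the sphingolipids rose and none fell, and the calls of Rraga, Optn, Gabarap and Atg3 were lost.

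Genes of glycolysis and of the hypoxia factor HIF rose. Of 22 glycolytic genes 17 rose and 2 fell (median 0.26), and of 22 other HIF targets 20 rose and none fell (median 0.45). Bnip3, a mitophagy receptor gene, stood at 68.5, 75.1 and 70.3 CPM in sildenafil libraries, against 25.9, 30.6 and 28.6 CPM in control libraries (1.33 ± 0.0571, adjusted p = 1.89e-09). Slc16a3, the lactate exporter, was at 179, 179 and 167 CPM in sildenafil libraries and 74.1, 87.1 and 74.8 CPM in control libraries (1.15 ± 0.0663). Vegfa, the angiogenic growth factor, rose by 0.94 and the pyruvate dehydrogenase kinase gene Pdk1 by 0.78. Both glycolytic genes that fell were lowly expressed: the glucose transporter Slc2a3 stood at 4.22, 5.25 and 4.51 CPM in sildenafil libraries and 6.82, 5.92 and 6.32 CPM in control libraries (-0.45 ± 0.114), and the regulator Pfkfb3 fell by 0.44 ± 0.123. Car9, a membrane carbonic anhydrase often used as a marker of hypoxia, did not pass (0.03). With the covariate 7 glycolytic genes rose and none fell, and the calls of Slc16a3 (1.10, adjusted p = 0.0532), Slc2a3 and Pfkfb3 were lost. The core TACGTG of the HIF site was present in 23.1% of 26 windows of the other HIF targets and in 3.84% of all windows.

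Stress factors around ATF4 rose, while the amino acid genes of the same program rose in part. ATF4 is translated when the kinases that phosphorylate eIF2 alpha are active, and CHOP, encoded by Ddit3, is 1 of its targets. Of 17 factors and feedback genes 14 rose and none fell (median 0.63), and of 32 amino acid and tRNA synthetase genes 13 rose and 6 fell (median 0.07). For the amino acid list these are 40.6% and 18.8%, against 19.5% and 18.3% over all genes tested. Its share of falls was thus near that of all genes. Ddit3 stood at 24.4, 25.0 and 23.2 CPM in sildenafil libraries, against 8.61, 10.0 and 8.78 CPM in control libraries (1.40 ± 0.0664, adjusted p = 3.20e-10). Atf4 itself was at 431, 415 and 415 CPM in sildenafil libraries and 269, 276 and 268 CPM in control libraries (0.63 ± 0.0286), and Chac1, which breaks down glutathione, rose by 1.08 ± 0.0514. Trib3, a pseudokinase that restrains ATF4 and CHOP, lies on chromosome 2 (152337422 to 152344032). It stood at 43.8, 42.3 and 44.1 CPM in sildenafil libraries, against 19.1, 20.5 and 20.2 CPM in control libraries (1.12 ± 0.047, adjusted p = 7.06e-11). With the covariate 8 of the stress factors rose, these 4 among them, and 5 amino acid genes rose and 2 fell.

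The Trib3 window (chr2:152344011-152344310, minus strand, RefSeq, GRCm38.p6) is shown because it holds the composite CHOP and ATF4 core TGATGNAA, in capitals on the other strand as TTACATCA from position 15 to 22.
Trib3: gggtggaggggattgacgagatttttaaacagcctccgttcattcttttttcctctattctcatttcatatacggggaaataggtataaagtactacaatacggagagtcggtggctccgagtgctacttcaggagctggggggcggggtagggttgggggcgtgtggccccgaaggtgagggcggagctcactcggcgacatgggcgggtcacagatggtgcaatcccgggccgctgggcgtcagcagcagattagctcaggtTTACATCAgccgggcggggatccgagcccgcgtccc
The core was present in 26.3% of 19 windows of the stress factors, in 33.3% of 27 windows of the amino acid genes and in 2.17% of all windows. The median log2 fold changes of the 2 sets were 0.63 and 0.07.

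Among the amino acid genes, the mitochondrial folate enzyme Aldh1l2 rose by 0.80 and the cystine transporter Slc7a11 by 0.70 ± 0.0604. Asparagine synthetase (Asns) stood at 209, 212 and 211 CPM in sildenafil libraries and 193, 187 and 191 CPM in control libraries, a rise of 0.14 ± 0.0278. Psat1 of the serine pathway stood at 371, 368 and 374 CPM in sildenafil libraries and 366, 373 and 371 CPM in control libraries, with overlap (0.0035 ± 0.0266, adjusted p = 0.938). Phgdh, its first enzyme, fell by 0.18, the leucine transporter Slc7a5 by 0.24 and the serine hydroxymethyltransferase Shmt1 by 0.33. Chaperones and sensors of the endoplasmic reticulum rose in 18 of 24 cases and fell in none (median 0.18), with Dnajb9 up by 0.66 and the chaperone BiP (Hspa5) by 0.22. Heat shock chaperones went the other way: 13 of 21 fell and 1 rose (median -0.16). The mitochondrial chaperonin gene Hspd1 was at 795, 787 and 788 CPM in sildenafil libraries and 999, 997 and 964 CPM in control libraries (-0.32 ± 0.0273), and the small heat shock gene Cryab was the 1 that rose (0.68 ± 0.0293). With the covariate 2 of the 24 chaperones and sensors rose, 7 heat shock genes fell, and the calls of Asns, Phgdh and Hspa5 were lost.

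Interferon-response genes rose from low levels. Of 37 antiviral effector genes 25 rose and 1 fell (median 0.36), and of 21 interferon-inducible GTPases and Schlafens 12 rose and none fell (median 0.31). Rsad2, which encodes the antiviral enzyme viperin and lies on chromosome 12 (26442746 to 26456452), stood at 18.3, 16.9 and 18.5 CPM in sildenafil libraries, against 10.1, 9.92 and 10.1 CPM in control libraries (0.83 ± 0.0627, adjusted p = 8.60e-08). Ifit1, which binds viral RNA, was at 15.8, 14.3 and 13.7 CPM in sildenafil libraries and 9.004, 8.67 and 9.14 CPM in control libraries (0.71 ± 0.0734). The 1 fall, that of the ubiquitin ligase gene Trim25 (-0.12), lost its call in 4 of the 6 fits without 1 library (adjusted p of 0.0589 to 0.13). Stat2, a signalling factor of type I interferon, rose by 0.87 ± 0.0521. Of 20 genes of MHC class I presentation 13 rose and 1 fell, led by the transactivator Nlrc5 (0.60) and including the heavy chain H2-K1 (0.48). The immunoproteasome subunit Psmb10 fell by 0.27. With the covariate 3 of these 20 genes rose and none fell, with a median of 0.03, Nlrc5 and H2-K1 kept their calls and that of Psmb10 was lost.

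Interferon genes are read through elements built on GAAANNGAA, and the Rsad2 window is shown for its match, in capitals on the other strand as TTCATTTTC (chr12:26456403-26456702, minus strand, RefSeq, GRCm38.p6).
Rsad2: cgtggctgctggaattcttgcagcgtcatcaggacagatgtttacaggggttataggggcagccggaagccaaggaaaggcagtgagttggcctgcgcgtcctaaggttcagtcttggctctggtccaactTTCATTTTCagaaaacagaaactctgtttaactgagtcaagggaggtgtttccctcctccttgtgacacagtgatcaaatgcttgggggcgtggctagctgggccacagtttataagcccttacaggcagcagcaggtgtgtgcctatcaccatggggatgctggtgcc
The match lay from -119 to -111, and the core was present in 56.9% of 51 windows of the 2 interferon lists and 6.89% of all windows. Of 24 leukocyte markers 21 stood under 1 CPM, and Adgre1 and Tyrobp had no count in any library. The 4 that were tested moved with the interferon genes in part: 3 rose. The macrophage gene Csf1r stood at 4.25, 4.19 and 5.11 CPM in sildenafil libraries and 2.71, 2.53 and 2.82 CPM in control libraries, and Cd14 and Cd68 rose by 0.65 ± 0.067 and 0.67 ± 0.129, while the pan-leukocyte gene Ptprc had a count in 1 sildenafil and 1 control library. Whether the cultures held leukocytes, and whether they had a part in the interferon result, was not tested. With Gm26917 as a covariate 2 antiviral genes were called and none of the GTPases, at medians of 0.33 and 0.20. Rsad2 and Stat2 kept their calls, and those of Ifit1 (0.64, adjusted p = 0.073), Trim25, Csf1r and Cd68 were lost. Near-identical members of these families (Ifit3 and Ifit3b, the Oas1 and Schlafen genes, the MHC class I heavy chains) share reads and are uncertain one by one.

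Secreted signals were divided. Of 15 chemokine and cytokine genes that passed the filter 7 rose (46.7%) and 4 fell (26.7%), against 19.5% and 18.3% over all genes tested. Cxcl16 stood at 28.6, 29.2 and 29.4 CPM in sildenafil libraries, against 17.6, 18.1 and 16.8 CPM in control libraries (0.73 ± 0.0489), and the T cell attractant Ccl5 rose by 1.01 ± 0.17 at 2.52 to 2.84 CPM in sildenafil libraries and 1.18 to 1.63 CPM in control libraries. The neutrophil attractant Cxcl1 fell to 6.23, 7.49 and 5.60 CPM in sildenafil libraries, against 11.2, 13.4 and 12.1 CPM in control libraries (-0.93 ± 0.106, adjusted p = 9.56e-06). Csf3, the granulocyte growth factor gene, fell by 1.11 ± 0.226, at 0.477 to 0.629 CPM in sildenafil libraries and 1.24 to 1.28 CPM in control libraries. With the covariate Cxcl16 was the 1 gene of the list that was called.

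**Figure D3:**
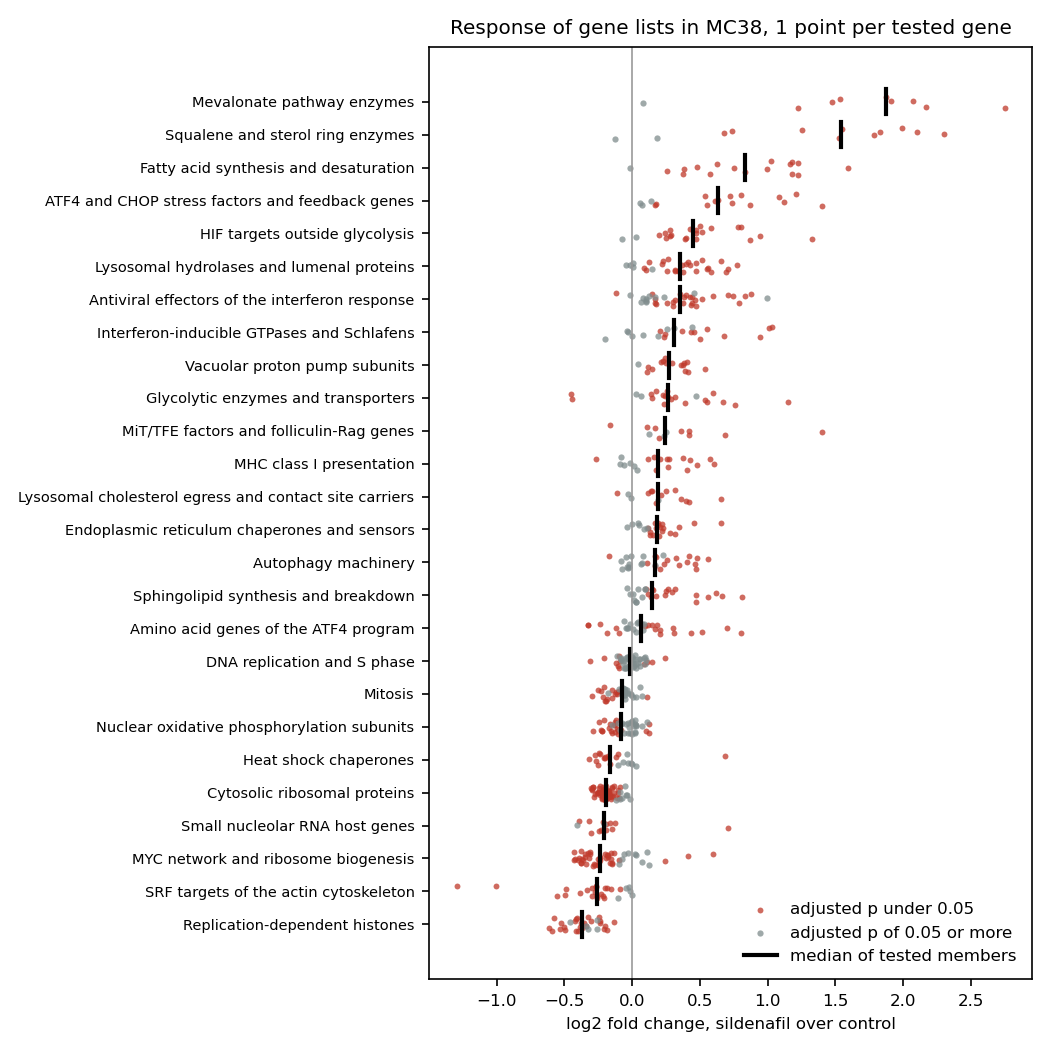
Log2 fold change of each tested gene (x axis) in 26 gene lists (rows), sildenafil over control in MC38. Points are genes, coloured when the adjusted p was under 0.05 and grey otherwise, and the bar is the median of the tested members; the medians run from 1.87 for mevalonate enzymes to -0.37 for histones, and the vertical spread within a row has no meaning.

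Genes of ribosome production fell together by small amounts. In the MYC network and ribosome biogenesis list 38 of 50 genes fell and 3 rose (median -0.24), 66 of 74 cytosolic ribosomal protein genes fell and none rose (median -0.19), and 11 of 14 small nucleolar RNA host genes fell and 1 rose. Dkc1, the pseudouridine synthase of small nucleolar RNPs, stood at 109, 109 and 111 CPM in sildenafil libraries, against 152, 143 and 149 CPM in control libraries (-0.43 ± 0.0319, adjusted p = 7.10e-08). Myc was at 62.6, 64.3 and 56.6 CPM in sildenafil libraries and 66.8, 70.8 and 71.3 CPM in control libraries (-0.19 ± 0.0472), and its relative Mycn fell by 0.43 ± 0.0709. The 3 genes of the list that rose were Mxd4 (0.60), Mnt (0.42) and Mxi1 (0.24), which encode MAX partners that oppose MYC. With Gm26917 as a covariate 18 biogenesis genes, 47 ribosomal protein genes and 2 host genes fell and none of these rose. Dkc1 kept its call, and those of Myc (-0.08, adjusted p = 0.785), Mycn, Mxd4, Mnt and Mxi1 were lost.

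Proliferation genes changed by small amounts. Of 46 DNA replication and S-phase genes 4 rose (8.7%) and 7 fell (15.2%), with a median of -0.02. Both shares were below those over all genes tested (19.5% and 18.3%). The 7 falls became 3 without control replicate 1 and 4 without control replicate 2 or sildenafil replicate 2, while the 4 rises became 2 without sildenafil replicate 1 or 2. Of 38 mitosis genes 15 fell and 1 rose (median -0.07), with the anaphase activator Cdc20 and the kinase Plk1 at -0.29 and -0.25. The 1 rise, that of the kinetochore gene Ndc80 (0.11), lost its call without control replicate 3 (adjusted p = 0.115), sildenafil replicate 2 (0.0742) or sildenafil replicate 3 (0.103). Cdkn1a, the inhibitor p21, stood at 4.94, 4.94 and 5.73 CPM in sildenafil libraries, against 2.22, 2.30 and 2.24 CPM in control libraries (1.21 ± 0.124, adjusted p = 2.09e-06), and the atypical cyclin gene Ccng2 was at 33.8, 33.9 and 34.2 CPM in sildenafil libraries and 15.9, 17.8 and 18.3 CPM in control libraries (0.97 ± 0.0543). Cdk6, a G1 kinase gene, fell by 0.55 ± 0.0553. Among 25 p53 targets 9 rose and 5 fell: Trp53inp1 rose by 1.83 ± 0.148 and Gadd45a by 1.32 ± 0.0688, while Plk2 fell by 0.61. The 5 falls became 2 without control replicate 1 or 2 and 3 without sildenafil replicate 2 or 3. The p53 targets Fas (-0.02), Ccng1 (0.0037) and Phlda3 (-0.0044) did not pass the test. With the covariate 1 S-phase gene and 3 mitosis genes fell and none rose, while 5 p53 targets rose and 1 fell. The calls of Plk1 (-0.25, adjusted p = 0.163), Ndc80 and Cdk6 were lost.

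Of 26 cytoskeletal targets of the factor SRF 21 fell and none rose (median -0.26). With the covariate 9 fell and 2 rose, among them Tln1 (0.28, adjusted p = 0.0178), which stood at -0.02 without it (adjusted p = 0.809). Vcl, which links adhesions to actin, stood at 638, 649 and 656 CPM in sildenafil libraries, against 902, 898 and 941 CPM in control libraries (-0.50 ± 0.0287, adjusted p = 4.20e-09), and Actb was at 4637, 4627 and 4398 CPM in sildenafil libraries and 5708, 5888 and 5611 CPM in control libraries (-0.33 ± 0.0317). Of 13 tubulin genes 7 fell and 1 rose, the exception being Tuba1a at 728, 714 and 701 CPM in sildenafil libraries and 355, 373 and 348 CPM in control libraries (0.99 ± 0.0311). Of 31 matrix and adhesion genes 14 fell (45.2%) and 5 rose (16.1%), with the integrin gene Itgb3 up by 0.73 ± 0.065. Collagen genes and their enzymes rose in 10 of 27 cases (37.0%) and fell in 8 (29.6%), with Col1a1 down by 0.66 ± 0.0887 and Col5a3 up by 0.54. Over all genes tested 19.5% rose and 18.3% fell. With the covariate 4 tubulin genes fell, 2 matrix genes fell and 4 rose, and 2 collagen genes fell and 5 rose. Col1a1 was then at -0.12 (adjusted p = 0.612).

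Among circadian genes 7 of 17 rose (41.2%) and 3 fell (17.6%), against 19.5% and 18.3% over all genes tested. Ciart, a repressor of the clock, stood at 9.13, 8.38 and 7.72 CPM in sildenafil libraries, against 3.78, 4.19 and 3.47 CPM in control libraries (1.14 ± 0.11, adjusted p = 1.13e-06), and the output factor Dbp rose by 0.85 ± 0.174. Per2 was at 1.14, 0.988 and 1.77 CPM in sildenafil libraries and 2.25, 1.70 and 2.20 CPM in control libraries, with overlap (-0.64 ± 0.216), and its call was lost in 4 of the 6 fits without 1 library (adjusted p of 0.0811 to 0.126). That of Hlf (-0.76 ± 0.226) was lost without control replicate 3 (adjusted p = 0.0572) or sildenafil replicate 1 (0.0739). With the covariate 1 circadian gene rose and none fell, and the calls of Ciart, Dbp, Per2 and Hlf were lost.

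The largest falls were less stable than the largest rises under other fits, and a noncoding transcript differed between the groups. Gm26917, a predicted gene on chromosome 17 (39843013 to 39846341), stood at 4822, 5915 and 5504 CPM in sildenafil libraries, against 8954, 10498 and 14105 CPM in control libraries (-1.05 ± 0.21, adjusted p = 0.0217). It took 0.489%, 0.59% and 0.556% of the counts in sildenafil libraries and 0.89%, 1.032% and 1.407% in control libraries. Its call was lost without control replicate 2 (adjusted p = 0.0615) or any 1 sildenafil library (0.0643 to 0.0772). As a covariate it shared 0.856 of its variance with treatment. The SE was then larger for 99.9% of the genes, with a median of 0.144 against 0.0567 without it. Of the 5047 calls 4197 were lost, and for 1136 of these (27.1%) the log2 fold change itself was under 50% of its size without the covariate or of the other sign.

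All 11 of these largest rises kept their call with the covariate, by DESeq2 and in all 6 fits without 1 library. Of the 11 largest falls reported 3 were called with the covariate (Abca1, Prl2c2 and Pdlim4), 6 in all fits without 1 library, and 11 by DESeq2. Prl2c2, a proliferin gene with close paralogs and therefore uncertain, fell to 6.59, 5.25 and 5.73 CPM in sildenafil libraries, against 15.6, 15.2 and 17.4 CPM in control libraries (-1.45 ± 0.0895). Polr2a, the large subunit of RNA polymerase II, varied within both groups, at 41.7, 55.8 and 76.6 CPM in sildenafil libraries and 124, 116 and 192 CPM in control libraries (-1.31 ± 0.34, adjusted p = 0.0458). Its call was lost in each of the 6 fits without 1 library (0.0557 without sildenafil replicate 3 to 0.14 without sildenafil replicate 2), and it stood at -0.10 with the covariate (adjusted p = 0.953). Control replicate 3 was highest of the 3 controls for Polr2a, Palld (39.2, 38.7 and 54.0 CPM), Eppk1 (19.2, 19.3 and 26.7 CPM) and Gm26917. The calls of Palld, Eppk1, Eif4ebp2 and Zbtb33 were lost in 2, 5, 4 and 1 of the 6 fits.

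**Figure D4:**
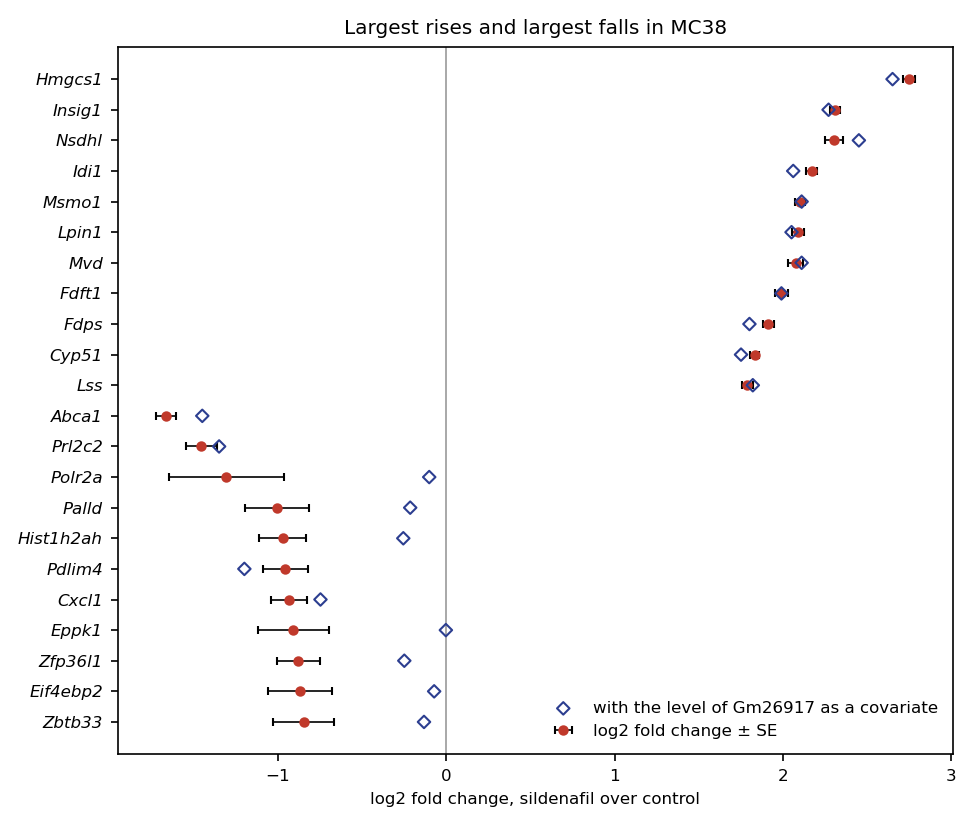
Log2 fold change, sildenafil over control, of the 11 largest rises (top) and 11 largest falls (bottom) reported under the naming rule, as filled points with bars of 1 SE, n = 3 libraries per group. Open diamonds give the value with Gm26917 as a covariate: they lie near the points for all rises and nearest to 0 for Polr2a, Eppk1, Eif4ebp2 and Zbtb33.

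The number of histone genes called also moved with single libraries. Of 31 replication-dependent histone genes 26 fell and none rose (median -0.37), but 16 fell without control replicate 2, 14 without control replicate 3 and 1 with the covariate. Their transcripts lack a poly(A) tail, many are near-identical, and they took 0.593% to 0.70% of counts in sildenafil libraries and 0.785% to 0.853% in control libraries. Of 13 RNA polymerase II subunits 7 fell and none rose, and 4 fell without control replicate 2 and none with the covariate. Malat1, a nuclear-retained noncoding RNA, stood at 3078, 3337 and 3890 CPM in sildenafil libraries, against 1990, 2057 and 2048 CPM in control libraries (0.76 ± 0.094, adjusted p = 0.00309), and with the covariate it was at 0.90 (adjusted p = 0.219). How far the RNA content of the libraries contributed to these values was not tested.

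Against 4T1 cells, which were treated for the same time at the same dose but have other controls, the MC38 response was lower for most interferon genes and higher for most ATF4 and amino acid genes. The difference of the 2 responses was tested in 15390 genes over 12 libraries, and 6257 differed (40.7%), 3281 higher in MC38 (21.3%) and 2976 lower (19.3%). Line and medium, DMEM for MC38 and RPMI for 4T1, cannot be told apart. The libraries of the lines also differed in RNA content, which cannot be told apart from line. The small noncoding RNA genes defined above took 7.36% to 10.3% of the counts in MC38 and 0.002% to 0.003% in 4T1. Histone genes took 0.593% to 0.853% in MC38 and 0.004% to 0.005% in 4T1, and protein-coding genes 87.3% to 89.5% in MC38 and 97.1% to 97.3% in 4T1. The labels give the same poly(A) preparation for both lines. Of the mevalonate enzymes 6 of 9 responded less in MC38 and none more, and of the enzymes from squalene to cholesterol 6 of 12 responded less and 3 more. For Hmgcs1 the log2 fold change was 2.74 in MC38 and 2.72 in 4T1, a difference of 0.02 ± 0.0536 (adjusted p = 0.835), and for Npc1 it was 0.39 in both (adjusted p = 1). A p that misses the threshold does not show that the responses were equal. Tm7sf2 stood at -0.14 in MC38 and 1.60 in 4T1 (difference -1.74 ± 0.19, adjusted p = 7.71e-07). Insig1 stood at 2.30 in MC38 and 3.29 in 4T1 (-0.99 ± 0.0417), and Pde5a at 0.30 in MC38 and 0.96 in 4T1 (-0.66 ± 0.188, adjusted p = 0.00976). For Abca1 the values were -1.68 in MC38 and -0.86 in 4T1, and the difference did not pass the test (-0.82 ± 0.625, adjusted p = 0.336).

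Of 40 antiviral genes 37 responded less in MC38 and none more, with medians of 0.36 in MC38 and 2.09 in 4T1, and of 23 GTPases and Schlafens 19 responded less, with medians of 0.29 in MC38 and 2.75 in 4T1. The stress genes were on the other side: 11 of 18 ATF4 and CHOP genes were higher and 2 lower in MC38, with medians of 0.61 in MC38 and 0.11 in 4T1. Trib3 stood at 1.11 in MC38 and -0.18 in 4T1 (1.29 ± 0.0498). Of 34 amino acid genes 30 were higher in MC38 and none lower, with medians of 0.04 in MC38 and -0.36 in 4T1. S-phase genes were higher in 38 of 46 cases (medians -0.03 in MC38 and -0.38 in 4T1), and of the MYC and ribosome biogenesis genes 42 of 50 were higher and 5 lower (medians -0.25 in MC38 and -0.76 in 4T1). Myc itself stood at -0.20 in MC38 and -1.23 in 4T1 (1.03 ± 0.0541).

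**Figure D5:**
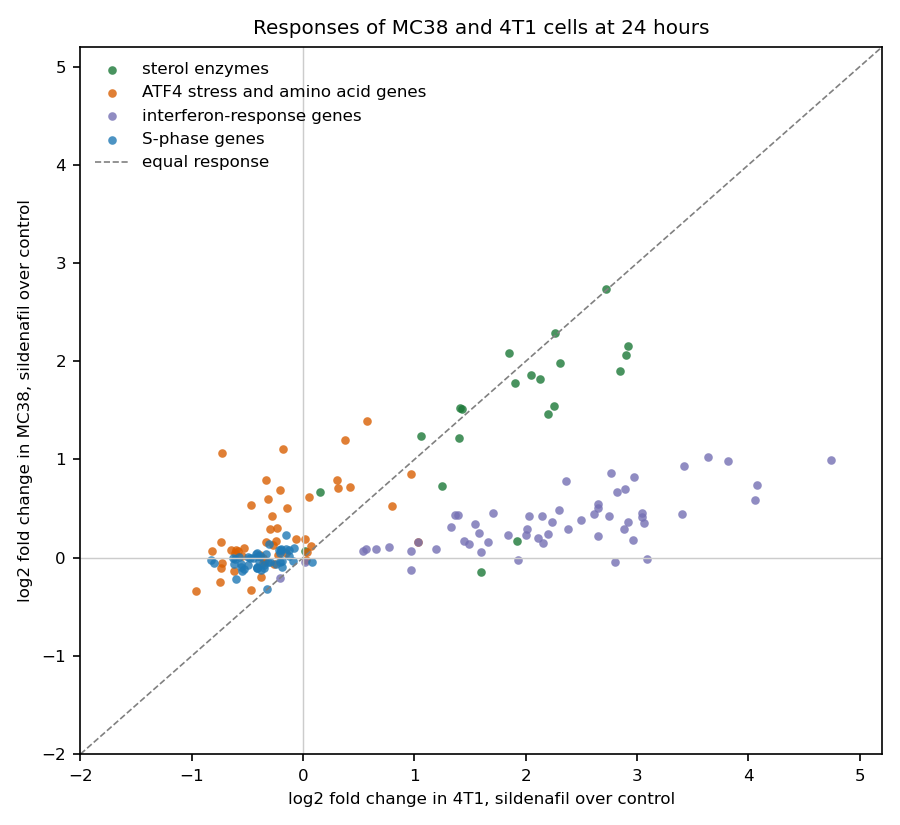
Log2 fold change, sildenafil over control, of single genes in MC38 (y axis) and in 4T1 (x axis), both after 24 hours, for 4 groups of lists. The dashed line marks an equal response: most sterol enzymes lie near it or below it, nearly all interferon-response genes lie below it, and stress, amino acid and S-phase genes lie mostly above it.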

How the data were processed

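Poly(A) RNA was prepared with a stranded TruSeq kit and read in paired ends of 100 cycles, per the labels' protocols. The authors deposited expected counts per gene from RSEM 1.3.1, with STAR 2.7.0f, cutadapt 1.18, bcl2fastq 2.17 and the mm10 build, per the submitters' processing notes. Which annotation release was used, and whether counting was stranded, is not given in the sources used here. Expected counts were rounded and 2 groups of 3 libraries were compared by edgeR 4.0.16 (R 4.3.3): filterByExpr, TMM factors, robust quasi-likelihood test, Benjamini-Hochberg adjustment. SE is the log2 fold change divided by the square root of F. The 4T1 comparison is the interaction term over 12 libraries. CPM per kb uses exon length. Scripts were tested on simulated counts with 200 changed genes, at 1.33-fold, 1.5-fold or 2-fold and none smaller. In the MC38 comparison 71.6% of the 1.33-fold and 96.7% of the 2-fold changes were recovered, and 7.69% of the calls were wrong. For the difference from 4T1 these values were 50%, 69.7% and 4%. The members, lists, motifs and naming rule were chosen with earlier results of these data known. Named genes were the 12 largest changes per direction (protein-coding, called, groups apart, averaging 5 CPM or more), fixed genes, up to 6 called per list with up to 3 of the opposite direction and up to 2 not called, and 4 differences from 4T1 per direction. Some genes that the rule names entered every fit and count and are not reported here. Other named genes (Mt1, Mt2, Slc30a1, Slc39a10, Lipg, Idh1, Pcyt2, Slc25a1 and list members outside the rule) were chosen after their values were seen. The Gm26917 covariate, DESeq2 1.42.0, other scalings and filters and leaving out each library were the alternatives. Counting limits cover counting error only.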

Additional observations from a re-analysis of the deposited data

Results flagged for a closer look

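For 8 genes chosen by the naming rule the response to sildenafil differed between MC38 and 4T1 by the interaction term of edgeR's quasi-likelihood test, and each kept its call in all 12 fits that left out 1 of the 12 libraries. Values are mean CPM ± SD on the scale of these libraries, with n = 3 per group. Among genes with a higher response in MC38, the clock repressor Ciart differed by 1.81 ± 0.115 (adjusted p = 1.70e-10), at 8.81 ± 0.729 CPM with sildenafil and 4.03 ± 0.39 CPM in control MC38, and 24.6 ± 1.50 CPM with sildenafil and 39.6 ± 2.30 CPM in control 4T1. Chac1, the glutathione-degrading stress gene, differed by 1.80 ± 0.0788, at 31.9 ± 0.794 CPM with sildenafil and 15.2 ± 0.598 CPM in control MC38, and 70.2 ± 5.63 CPM with sildenafil and 116.5 ± 4.93 CPM in control 4T1. Hbegf, a ligand of the EGF receptor, differed by 1.60 ± 0.0637, at 54.3 ± 0.989 CPM with sildenafil and 52.8 ± 1.90 CPM in control MC38, and 37.4 ± 2.60 CPM with sildenafil and 111 ± 3.19 CPM in control 4T1. Gadd45a, a growth arrest gene, differed by 1.55 ± 0.0632, at 19.0 ± 0.611 CPM with sildenafil and 7.67 ± 0.406 CPM in control MC38, and 91.4 ± 0.433 CPM with sildenafil and 108 ± 1.50 CPM in control 4T1. For Ciart, Chac1 and Gadd45a the mean was higher with sildenafil in MC38 and lower with sildenafil in 4T1.

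Of the genes with a lower response in MC38, 3 are interferon-inducible. Ifit3 differed by -3.34 ± 0.154, at 14.3 ± 0.861 CPM with sildenafil and 8.60 ± 0.71 CPM in control MC38, and 61.6 ± 7.71 CPM with sildenafil and 3.64 ± 0.283 CPM in control 4T1. The GTPase gene Ifi47 differed by -3.10 ± 0.172, at 26.7 ± 1.39 CPM with sildenafil and 26.9 ± 0.767 CPM in control MC38, and 11.2 ± 1.53 CPM with sildenafil and 1.30 ± 0.378 CPM in control 4T1. Gbp2, a guanylate-binding protein gene, differed by -2.84 ± 0.086, at 16.7 ± 0.497 CPM with sildenafil and 17.2 ± 1.05 CPM in control MC38, and 68.0 ± 3.84 CPM with sildenafil and 9.80 ± 0.611 CPM in control 4T1. The control levels of these 3 genes were higher in MC38 than in 4T1. Dio2, a thyroid hormone deiodinase, differed by -2.88 ± 0.317 (adjusted p = 6.80e-05), at 16.1 ± 0.903 CPM with sildenafil and 14.9 ± 0.926 CPM in control MC38, and 15.4 ± 4.88 CPM with sildenafil and 1.91 ± 0.107 CPM in control 4T1.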

How the results depend on the processing

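With Gm26917 as a covariate, 923 genes changed (458 higher and 465 lower), 78 of them at least 2-fold. Changes of at least 2-fold numbered 84 by DESeq2, 207 without the filter and 57 with a stricter one. Leaving out 1 library in turn gave 4026 to 4645 changed genes (2128 to 2396 higher and 1898 to 2249 lower), 130 to 151 of them at least 2-fold, and 5712 to 6296 differences from 4T1 (2913 to 3200 higher and 2760 to 3096 lower). Of 454 named results 267 were the same with the covariate and 433 by DESeq2, meaning called in the same direction or called in neither fit. Among the genes called with or without the covariate 14 turned direction with it. They were Ccnd2 at 0.0881, Crtc2 at 0.0531, Jak1 at 0.0762, Ndufa2 at -0.0625, Ndufs8 at -0.0405, Npr3 at 0.116, Pcna at -0.0323, Pecam1 at -0.11, Ski at 8.3e-05, Tgfbr3 at 0.0274, Tln1 at 0.279, Trim25 at 0.0712, Twist2 at 0.10 and Znrf3 at 0.0908, and the cause was not tested. Turns of direction in genes called in neither fit are not counted here. With library totals in place of TMM factors 59.7% of the calls were higher, against 51.6%. With DESeq2 or without control replicate 2, 10 of 31 nucleic acid sensor and interferon factor genes rose, against 16. With the covariate 1 of the 31 rose and none fell. Libraries of the same number deviated from their group means with correlations of 0.0764, 0.0104 and 0.238, the last being the highest of all pairs. Sildenafil replicate 2 correlated best with control replicate 1 (0.128). These values do not settle whether libraries of the same number were paired. A fit with the replicate number as a block gave 5867 changed genes, against 5047. Depth limits genes under the counting floor.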

Other observations

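The metallothionein genes, whose products bind zinc and copper, rose in MC38 beside the lipid genes. Mt1 stood at 210, 199 and 198 CPM in sildenafil libraries, against 64.7, 66.9 and 61.95 CPM in control libraries (log2 fold change 1.65 ± 0.0363, edgeR's quasi-likelihood test with Benjamini-Hochberg adjustment, adjusted p = 1.48e-14), and Mt2 at 124, 119 and 119 CPM in sildenafil libraries, against 41.1, 39.8 and 38.7 CPM in control libraries (1.60 ± 0.0361). The zinc exporter gene Slc30a1 rose by 0.36 ± 0.0624 and the zinc importer gene Slc39a10 fell by 0.43 ± 0.0444. The call of Slc30a1 was lost with Gm26917 as a covariate. For Mt1 the log2 fold change was 1.64 in MC38 and 0.54 in 4T1, a difference of 1.09 ± 0.0516 (adjusted p = 3.02e-12). Lipg, a secreted phospholipase, rose by 1.63 ± 0.0495, Idh1, a cytosolic source of NADPH, by 1.28 ± 0.0393, Pcyt2 of phosphatidylethanolamine synthesis by 1.18 ± 0.0308, and the citrate carrier gene Slc25a1 by 1.02 ± 0.042.

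Nuclear genes of oxidative phosphorylation fell in 19 of 45 cases and rose in 3 (median -0.08), with the cytochrome c1 gene Cyc1 at -0.29 and the ATP synthase genes Atp5c1 and Atp5a1 at -0.24 and -0.22. The 3 rises (Ndufs8, Ndufa2 and Sdhc) were all lost without control replicate 3 or sildenafil replicate 1 or 2. With Gm26917 as a covariate 5 of the list fell and none rose, and the call of Cyc1 was lost. Targets of the oxidative stress factor NRF2 were divided, with 9 of 24 higher (37.5%) and 6 lower (25.0%), against 19.5% and 18.3% over all genes tested. The glutathione synthesis gene Gclm fell by 0.27 and the pentose phosphate gene G6pdx rose by 0.26. Hmox1 stood at 59.1, 59.5 and 58.2 CPM in sildenafil libraries and 56.1, 58.0 and 58.6 CPM in control libraries, with overlap (0.03 ± 0.0362, adjusted p = 0.51). Among BCL2 family genes 7 of 16 rose (43.8%) and 3 fell (18.8%, near the share over all genes tested). The rises were led by the mitophagy receptors Bnip3 and Bnip3l at 1.33 and 0.48, while the survival genes Mcl1 and Bcl2l1 did not pass the test (0.00 and -0.01). With the covariate 2 NRF2 targets rose and 2 fell, without Gclm and G6pdx, and 2 BCL2 family genes rose and none fell.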
